A study of Mus musculus with 12 samples.

Results

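The comparison set 2 drugs against each other in glucose-stimulated mouse islets, FK506 (11G+FK) and diazoxide (11G+D), both added at 11 mM glucose for 4 h. It used 4 of the 12 samples of the series, which were chosen by their treatment labels and paired by mouse number, so that the islets of mice 1 and 2 each gave 1 library per drug. All 4 libraries came from wild-type C57BL/6 mice with no transgene, and the labels give neither the drug doses nor the age or sex of the mice. The same mouse numbers also stand on islets at 11 mM glucose alone (11G) and on islets at low glucose (2G), labelled untreated with no concentration or time. The remaining 4 libraries came from islets with channelrhodopsin-2, a light-gated channel, made only in the β cells, kept with or without light. The series asks which islet transcripts follow electrical activity. Setting FK506 against diazoxide asks which of them differ between islets whose calcineurin was inhibited and islets whose membrane was held hyperpolarized.

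In the β cell, glucose metabolism closes ATP-sensitive potassium channels, the membrane depolarizes, and calcium enters through voltage-gated channels. Diazoxide opens those potassium channels, so it acts before calcium entry. FK506 binds the immunophilin Fkbp1a, and the complex inhibits calcineurin, a phosphatase that calcium and calmodulin switch on and that acts on NFAT factors and on CRTC coactivators of CREB. Calcium also acts through calmodulin kinases and the ERK pathway, which do not need calcineurin.

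Promoters were searched for the 3 largest named increases and the 3 largest named decreases, and 5 of these 6 genes matched the promoter table. Those of 3 genes are printed, each with a match to a searched motif and a wide difference between the drugs. Tcp10b also had both and is not printed. Npas4 encodes a basic helix-loop-helix factor induced by membrane activity, Slc6a19os is a transcript antisense to a transporter gene, and Txnip encodes a thioredoxin-binding protein. The sequences are from RefSeq on GRCm38.p6 and run 5′ to 3′ from 250 bases before the annotated start to 50 bases after it. Npas4 (chr19:4989922-4990221, minus strand) holds 2 copies of TGACG, the core of the cAMP response element, on opposite strands (capitals).
Npas4 promoter: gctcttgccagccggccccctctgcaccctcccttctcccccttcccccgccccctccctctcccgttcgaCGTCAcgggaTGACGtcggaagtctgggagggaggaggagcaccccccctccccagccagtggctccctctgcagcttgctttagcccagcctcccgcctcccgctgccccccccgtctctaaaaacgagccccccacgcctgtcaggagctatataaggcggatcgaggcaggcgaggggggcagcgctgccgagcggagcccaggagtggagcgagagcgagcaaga
Slc6a19os (chr13:73699705-73700004, plus strand) holds 2 copies of TGAGTCA, a form of the AP-1 motif TGANTCA (capitals).
Slc6a19os promoter: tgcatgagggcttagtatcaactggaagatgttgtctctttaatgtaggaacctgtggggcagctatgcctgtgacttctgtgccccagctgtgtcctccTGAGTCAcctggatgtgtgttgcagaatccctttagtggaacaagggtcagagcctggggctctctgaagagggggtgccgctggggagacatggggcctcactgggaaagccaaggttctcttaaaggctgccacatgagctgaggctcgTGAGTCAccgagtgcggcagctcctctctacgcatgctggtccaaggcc
Txnip (chr3:96557707-96558006, plus strand) holds 1 match to the NFAT core TGGAAA on the opposite strand (capitals).
Txnip promoter: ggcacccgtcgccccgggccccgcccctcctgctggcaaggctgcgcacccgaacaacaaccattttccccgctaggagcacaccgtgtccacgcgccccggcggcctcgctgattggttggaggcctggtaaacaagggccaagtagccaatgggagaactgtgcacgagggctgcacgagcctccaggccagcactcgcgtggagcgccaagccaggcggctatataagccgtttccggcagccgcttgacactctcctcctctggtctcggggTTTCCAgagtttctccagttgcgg
Both windows of Zdhhc22, a gene higher with FK506, held 0 matches to any of the motifs, and the window of Tcp10b, lower with FK506, held 1 match to TGANTCA. They are not printed. The full element TGACGTCA was in none of the windows searched. Among 32851 promoters of the same length, searched on both strands, TGACGTCA was found in 1.79%, TGACG in 20.8%, TGANTCA in 7.81% and TGGAAA in 21.4%. TGACG was added to the search after the values were seen, and it overlaps TGACGTCA. A match describes letters in a window and shows neither a bound site nor a cause.

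The 11G+FK libraries held 17795331 and 16375631 counts in mice 1 and 2, and the 11G+D libraries held 18938404 and 17357572. Transcripts of the drug targets did not differ past the threshold. Kcnj11 and Abcc8, the subunits of the β-cell ATP-sensitive potassium channel, had log2 differences of -0.26 ± 0.27 and -0.02 ± 0.21 (11G+FK minus 11G+D, ± SE). The calcineurin subunits Ppp3ca, Ppp3cb and Ppp3r1 had log2 differences of 0.05 ± 0.14, -0.22 ± 0.16 and -0.13 ± 0.17, and Fkbp1a 0.03 ± 0.17. Transcript levels do not measure drug action, and neither drug's effect on its target is checked by them. β-cell markers took 10.4% and 7.41% of all counts in the 11G+FK libraries, against 10.1% and 10.9% in the 11G+D libraries. α-cell markers took 1.06% and 0.356% in 11G+FK, against 1.196% and 0.791% in 11G+D, so both shares were lowest in the FK506 library of mouse 2. Acinar markers took 0.0172% and 0.0623% in 11G+FK, against 0.0298% and 0.0516% in 11G+D. In whole islets fewer cells of a type and less RNA per cell cannot be told apart.

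The activity-induced factor gene Npas4 was 14.8-fold and the nuclear long noncoding RNA Neat1 7.83-fold higher with FK506 than with diazoxide (n = 2 mice each). Some genes of the amino acid response, such as Ddit3 and Trib3, were higher with FK506 as well. Txnip, the pyruvate kinase gene Pklr and the islet factor gene Rfx6 were lower with FK506. With edgeR's quasi-likelihood test and p-values adjusted by Benjamini-Hochberg, 188 of 16087 genes passed an adjusted p of 0.05 (1.17%). Of these, 126 were higher with FK506 (0.783%) and 62 were lower (0.385%), and 89 and 27 of them differed at least 2-fold. At an unadjusted p under 0.05, 1453 genes were higher (9.03%) and 1180 lower (7.34%). The count rests on few libraries. Without the mouse block 5 genes passed, which were Npas4, Neat1, Rem2, Rasd2 and Aacs. Without the FK506 library of mouse 1, 3 genes passed (Npas4, Neat1 and Cyp1a1), and without that of mouse 2, 3 genes passed (Npas4, Neat1 and Aqp4). These fits leave 1 FK506 library, which is assumed to vary like the other groups. All other calls named here were lost in both fits. The 126 and 62 kept their direction in the 4 fits that left out 1 of the compared libraries. That was close to fixed beforehand, since all had the same direction in both mice. Leaving out a diazoxide library gave 486 calls (mouse 1) or 66 (mouse 2), leaving out an 11G library gave 62 or 65, and leaving out a 2G library gave 395 or 427.

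**Figure D1:**
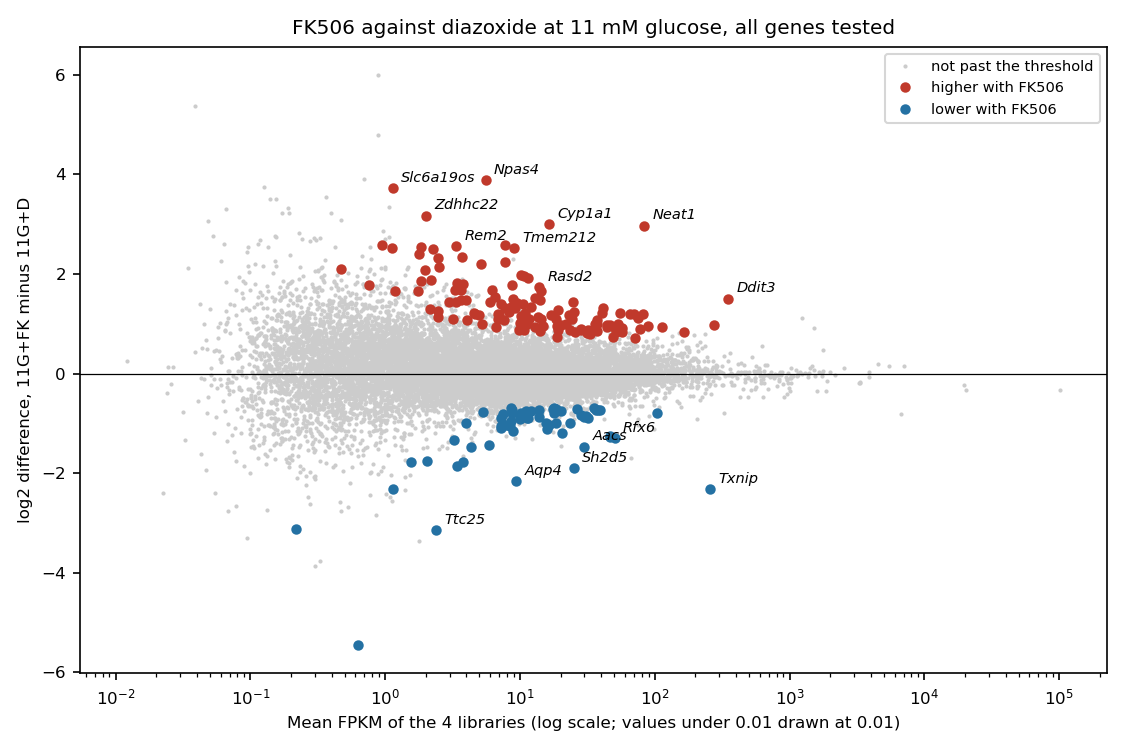
Log2 difference of 11G+FK minus 11G+D (vertical axis) against the mean deposited FPKM of the 4 libraries (horizontal log axis) for all 16087 genes tested, with genes past the adjusted p of 0.05 in red (higher with FK506, 126) and blue (lower, 62). Npas4, Neat1 and Cyp1a1 stand near 3 or above on the log2 scale, and Txnip stands at -2.31 with a high mean level.

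The difference was also computed within each mouse, which shares no library with the other mouse. Across all genes the log2 differences of mice 1 and 2 correlated with r = 0.304, over genes, which are not independent replicates. Npas4 was 3.38 higher in mouse 1 and 4.32 in mouse 2 on the log2 CPM scale, and Neat1 was 2.83 and 3.09 higher. Not every called gene differed equally in the mice. Sh2d5, an adaptor protein gene, was lower by 2.57 and 1.04 on the log2 scale. Without the diazoxide library of mouse 1 the fitted difference of Sh2d5 was -1.06, and without that of mouse 2 it was -2.56.

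**Figure D2:**
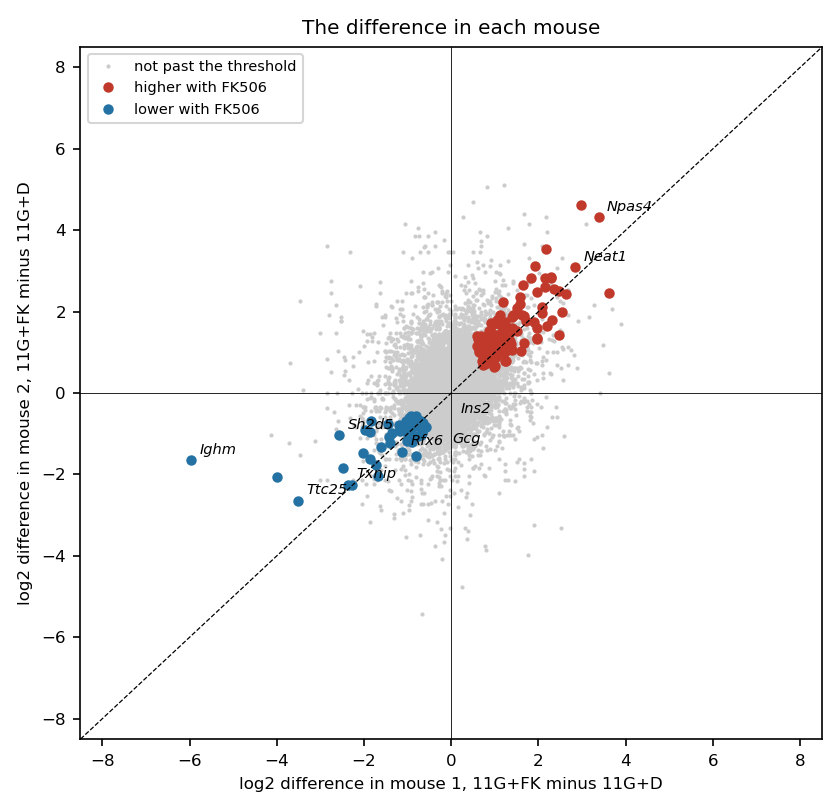
Log2 CPM difference of 11G+FK minus 11G+D in mouse 1 (horizontal axis) and mouse 2 (vertical axis) per gene, with the dashed line marking equal differences. Neat1 lies close to the line in the upper right and Txnip close to it in the lower left. Npas4 lies off it with the larger difference in mouse 2 (3.38 and 4.32 in mice 1 and 2). Ttc25 (-3.51 and -2.64) and Sh2d5 lie off it with the larger difference in mouse 1.

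Among activity-induced transcription factors, Npas4 was far higher with FK506. It had 25.6 and 41.0 CPM (reads relative to the TMM-adjusted size of the library) in 11G+FK mice 1 and 2, against 2.41 and 2.01 CPM in 11G+D. The groups did not overlap. With 2 libraries a group such separation can arise by chance, and its share over all genes was not computed. Both FK506 libraries lay below the 77.3 and 60.1 CPM of 11G and above the 1.28 and 1.74 CPM of 2G. The 11G+D libraries were near the 2G level. The difference was 14.8-fold (log2 3.89 ± 0.29, 95% interval 3.23 to 4.54, adjusted p = 0.0009 by edgeR's quasi-likelihood test). In deposited FPKM it stood at 7.82 and 13.03 with FK506, against 0.741 and 0.598 with diazoxide. The tables list Npas4 as ENSMUSG00000045903 at chr19:4984355-4989971 on the minus strand, with no build given in the sources used here. The same transcript was 2.48 ± 0.35 higher on the log2 scale under light than without it in channelrhodopsin-2 islets (adjusted p = 0.00154, edgeR's quasi-likelihood test).

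Other immediate early factors had positive differences that missed the threshold. Fos, a subunit of the AP-1 factor, had 45.6 and 40.0 CPM in 11G+FK against 14.5 and 15.7 CPM in 11G+D. Its log2 difference of 1.51 ± 0.40 missed the threshold (adjusted p = 0.106, edgeR's quasi-likelihood test). Fosb had a difference of 1.37 ± 0.35 and Egr1, a zinc finger factor, 0.70 ± 0.18, with adjusted p-values of 0.0983 and 0.103 in the same test. Of the 10 AP-1 genes tested, 0 passed edgeR's test and 3 passed with DESeq2. At an unadjusted p under 0.05, 5 were higher (9.03% over all genes). In both mice 7 were higher and 0 lower (31.3% and 30.2% of all genes). Their median log2 difference was 0.53, against -0.0018 over all genes tested. Of 11 genes of the Egr, Npas4 and Arc group, 1 was called higher (Npas4, against 0.783% over all genes), and the median was 0.61. The other early genes, such as the Ier, Klf and Btg families, had 0 of 23 past the threshold by edgeR's test and 2 with DESeq2. At an unadjusted p under 0.05, 5 of them were higher (9.03% over all genes).

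**Figure D3:**
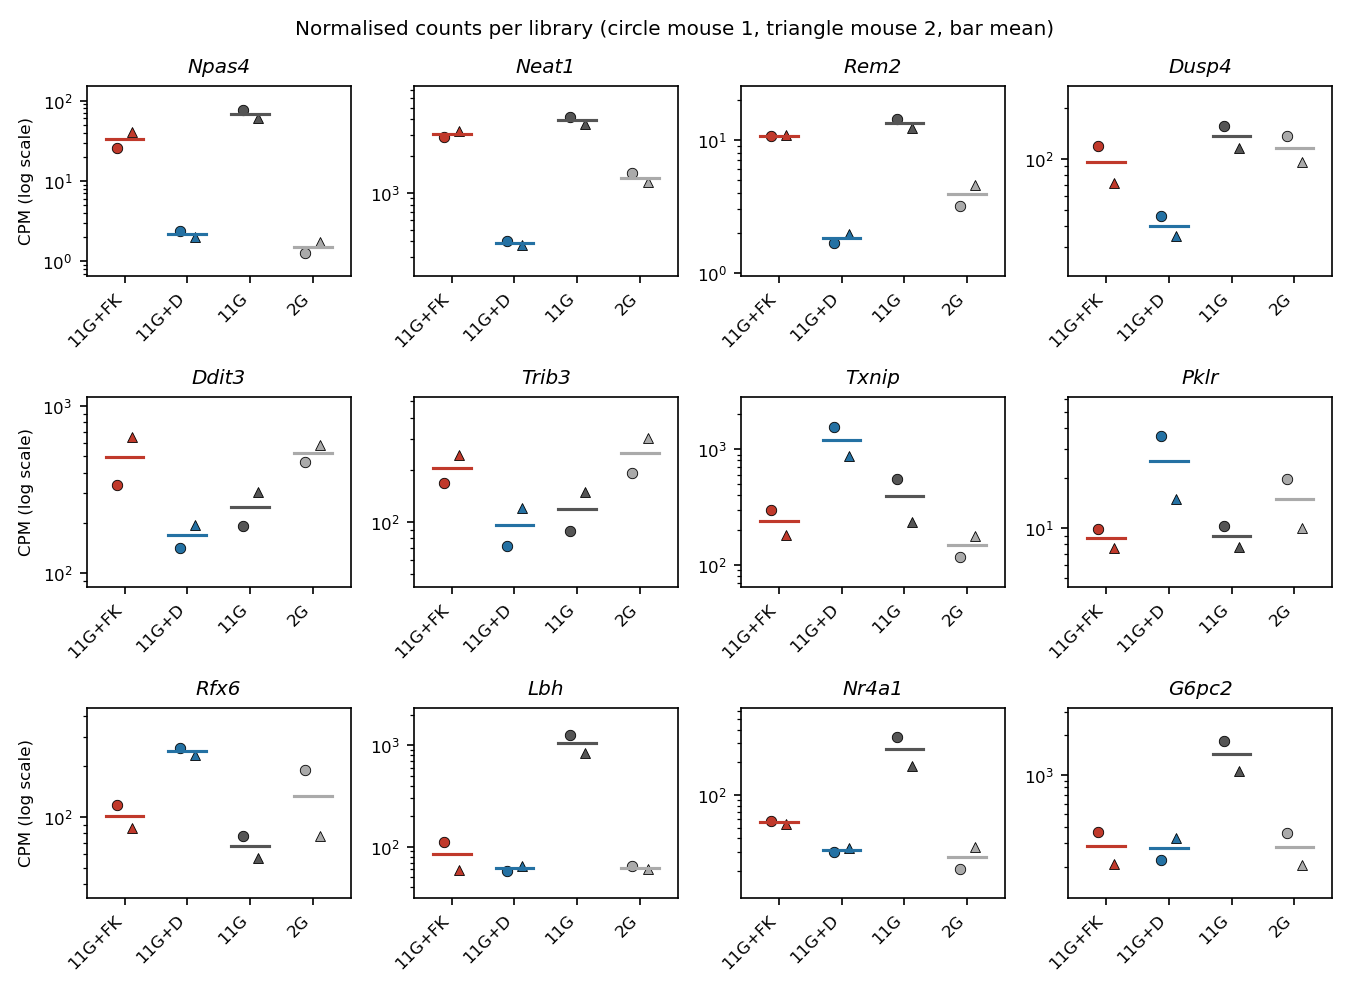
CPM per library (vertical log axis) of 12 genes in 11G+FK, 11G+D, 11G and 2G, with circles for mouse 1, triangles for mouse 2 and bars for the mean of the group. Npas4, Neat1 and Rem2 are higher with FK506 than with diazoxide, Txnip and Rfx6 are highest with diazoxide, and Lbh and G6pc2 are low with either drug and high at 11G alone.

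A second set of glucose-induced transcripts was low with both drugs. Lbh, a transcriptional cofactor gene, had 110 and 59.7 CPM in 11G+FK, 58.2 and 65.0 CPM in 11G+D, and 1247 and 840 CPM in 11G. The FK506 and diazoxide libraries overlapped, and all 4 lay far below 11G. The log2 difference was 0.41 ± 0.24, with a 95% interval of -0.12 to 0.93. Nr4a2, an orphan nuclear receptor gene, had 16.2 and 11.8 CPM in 11G+FK, 14.69 and 12.99 CPM in 11G+D, and 95.6 and 51.5 CPM in 11G. Its difference was 0.00 ± 0.23, with an interval of -0.52 to 0.52.
G6pc2, the islet glucose-6-phosphatase subunit, had 364 and 210 CPM in 11G+FK, 223 and 332 CPM in 11G+D, and 1798 and 1060 CPM in 11G. Its difference was -0.06 ± 0.31 (95% interval -0.74 to 0.63), with mouse 1 higher and mouse 2 lower under FK506. Rgs2, a regulator of G protein signalling, and Prlr, the prolactin receptor gene, had differences of 0.32 ± 0.35 (interval -0.46 to 1.09) and -0.12 ± 0.24 (interval -0.66 to 0.43). None of these 5 genes passed the test, and the intervals allow differences of the stated sizes. Nr4a1, another orphan receptor gene, stood between the 2 sets, at 57.8 and 54.7 CPM in 11G+FK against 29.9 and 32.5 CPM in 11G+D, with 344 and 185 CPM in 11G. Its difference of 0.85 ± 0.29 missed the threshold (adjusted p = 0.19, edgeR's quasi-likelihood test). Each drug was also fitted against the same 11G libraries, which the 2 contrasts share. In that fit Npas4 was at -1.07 ± 0.24 with FK506 and -4.95 ± 0.30 with diazoxide, Nr4a1 at -2.23 and -3.07, and Lbh at -3.63 and -4.04. The change of Npas4 with FK506 did not pass the threshold (adjusted p = 0.149, edgeR's quasi-likelihood test), while the others given here did.

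Neat1, the scaffold RNA of nuclear paraspeckles, was the other transcript called in all 8 fits that left out 1 library. It had 2852 and 3191 CPM in 11G+FK, against 400 and 375 CPM in 11G+D. The diazoxide libraries also lay below the 1445 and 1219 CPM of 2G. The difference was 7.83-fold (log2 2.97 ± 0.22, adjusted p = 0.0009, edgeR's quasi-likelihood test). Under light in channelrhodopsin-2 islets, Neat1 did not change in the direction of Npas4. Its log2 change was -1.18 ± 0.47, not past the threshold, with opposite signs in mouse 1 (0.40) and mouse 2 (-2.77). Rbm14, a paraspeckle protein gene, was higher by 1.23 ± 0.18, with 40.7 and 39.7 CPM in 11G+FK against 19.8 and 14.7 CPM in 11G+D. Mirg, a microRNA host transcript of the Meg3 locus, was higher by 1.22 ± 0.20. These were the 3 of 18 paraspeckle and nuclear RNA genes past the threshold, all higher (0.783% over all genes), and the list median was 0.32. Sfpq and Nono, further paraspeckle proteins, had differences of -0.03 and -0.22 and did not pass.

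Noncoding gene classes of the tables (lincRNA, processed transcript, antisense and sense-overlapping or intronic RNA) made up 7.58% of the genes tested. They made up 36 of the 126 genes called higher with FK506 (28.6%) and 2 of the 62 called lower (3.23%). Of the 36, 17 were processed transcripts, 14 lincRNAs and 5 antisense RNAs. The median log2 difference of all 501 lincRNAs tested was 0.48, at 0.30 in mouse 1 and 0.61 in mouse 2, whereas protein-coding genes had a median of -0.02. Against 11G, lincRNAs had a median of 0.10 with FK506 and -0.39 with diazoxide. Among named members, Airn, the antisense RNA of the Igf2r locus, had 15.54 and 13.97 CPM in 11G+FK against 7.97 and 4.31 CPM in 11G+D, and Firre, an X-linked nuclear RNA, had 73.8 and 73.2 against 46.2 and 32.5 CPM. Both were singled out after their values were seen. Slc6a19os had 65 and 46 reads in 11G+FK against 8 and 1 in 11G+D. No source used here says whether the counting used strand, so reads of an antisense gene and its partner cannot be told apart. Without either FK506 library 1 noncoding gene was called.

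Among small GTPase and RGS genes, Rem2 and Rasd2 were higher and Rgs16 lower with FK506. Rem2, a small GTPase that inhibits voltage-gated calcium channels, had 10.6 and 10.8 CPM in 11G+FK against 1.68 and 1.95 CPM in 11G+D. The FK506 values were close to the 14.3 and 12.4 CPM of 11G. The difference was 2.56 ± 0.28 (adjusted p = 0.00738, edgeR's quasi-likelihood test). Rasd2, a Ras-like GTPase gene, had 62.2 and 55.5 CPM in 11G+FK against 19.04 and 16.36 CPM in 11G+D, a difference of 1.74 ± 0.14, although 11G and 2G differed little (log2 0.07). Rgs16, which speeds the switching off of G proteins, went the other way at 59.7 and 68.0 CPM in 11G+FK against 160 and 144 CPM in 11G+D (-1.25 ± 0.18). They were the 3 called members of 19 (1.17% over all genes).

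Of 17 feedback genes of the ERK pathway, 2 were higher and 0 lower (0.783% and 0.385% over all genes). Dusp4, a phosphatase that inactivates MAP kinases, had 120 and 72.2 CPM in 11G+FK against 45.5 and 34.7 CPM in 11G+D (1.23 ± 0.15). Etv5, an ETS factor induced by ERK signalling, had 24.7 and 25.8 CPM in 11G+FK against 10.2 and 11.9 CPM in 11G+D (1.2 ± 0.19). Both FK506 libraries of Etv5 lay at the level of the 24.0 and 28.7 CPM in 11G. Spry4 and Dusp14 had differences of 0.71 and 0.79 and missed the threshold. The list median was 0.29.

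The largest remaining increases lay in genes of mixed roles. Zdhhc22, of the palmitoyltransferase family, had 56 and 43 reads in 11G+FK against 4 and 7 in 11G+D (log2 3.17 ± 0.49). Cyp1a1, the classic target of the aryl hydrocarbon receptor, had 77.2 and 67.9 CPM in 11G+FK against 17.0 and 5.79 CPM in 11G+D (3.0 ± 0.46). Cyp1a1 differed as much between mice in other groups, with 97.6 and 16.1 CPM in 2G, and its difference was 1.98 without the FK506 library of mouse 2, not past the threshold, against 3.79 without that of mouse 1. Ccl20, a chemokine gene, had 6.96 and 29.3 CPM in 11G+FK against 2.20 and 4.61 CPM in 11G+D (2.25 ± 0.41), the only member of 33 cytokine and NF-kB response genes past the threshold in edgeR's test. Over all genes tested, 0.783% were called higher. Mettl21b, a lysine methyltransferase, Tmem212, Asb11, Lrrc36, Klhdc8a, Lrrc29 and the mitochondrial carrier Slc25a40 were higher by 1.68 to 2.54 on the log2 scale.

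The amino acid response is the set of genes that Atf4 drives when amino acids are short or the integrated stress response is on. Of 30 such genes tested, 7 were higher with FK506 (0.783% over all genes), 0 were lower, and 22 were higher at an unadjusted p under 0.05 (9.03% over all genes). In both mice 27 of the 30 were higher (31.3% over all genes), and the median difference was 0.57, at 0.55 in mouse 1 and 0.60 in mouse 2. Ddit3, which encodes the factor CHOP, had 335 and 656 CPM in 11G+FK against 142 and 195 CPM in 11G+D (1.51 ± 0.19, adjusted p = 0.00933, edgeR's quasi-likelihood test). The 2G libraries were at 464 and 586 CPM, and the 11G libraries at 191 and 305 CPM. Trib3, a pseudokinase gene, had 168 and 243 CPM in 11G+FK against 71.9 and 120 CPM in 11G+D (1.12 ± 0.14), and Chac1, which degrades glutathione, 72.2 and 111 against 30.6 and 47.8 CPM (1.22 ± 0.16). Atf5, Eif4ebp1, Nupr1 and Mthfd2, the last an enzyme of mitochondrial folate metabolism, were higher by 0.97, 0.92, 0.83 and 0.71. Atf4 itself had a difference of 0.56 and Asns, asparagine synthetase, 0.38, neither past the threshold. Against the 11G libraries that the contrasts share, the list median was 0.33 with FK506 and -0.32 with diazoxide, and in 11G against 2G it was -0.50. Of 22 endoplasmic reticulum chaperone and unfolded protein response genes, 0 passed edgeR's test, 0 passed with DESeq2 and 0 had an unadjusted p under 0.05, with a median of -0.0032. The count of 7 fell to 0 without either FK506 library, to 0 without the mouse block, and to 3 without either 11G library or without the diazoxide library of mouse 2.

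**Figure D4:**
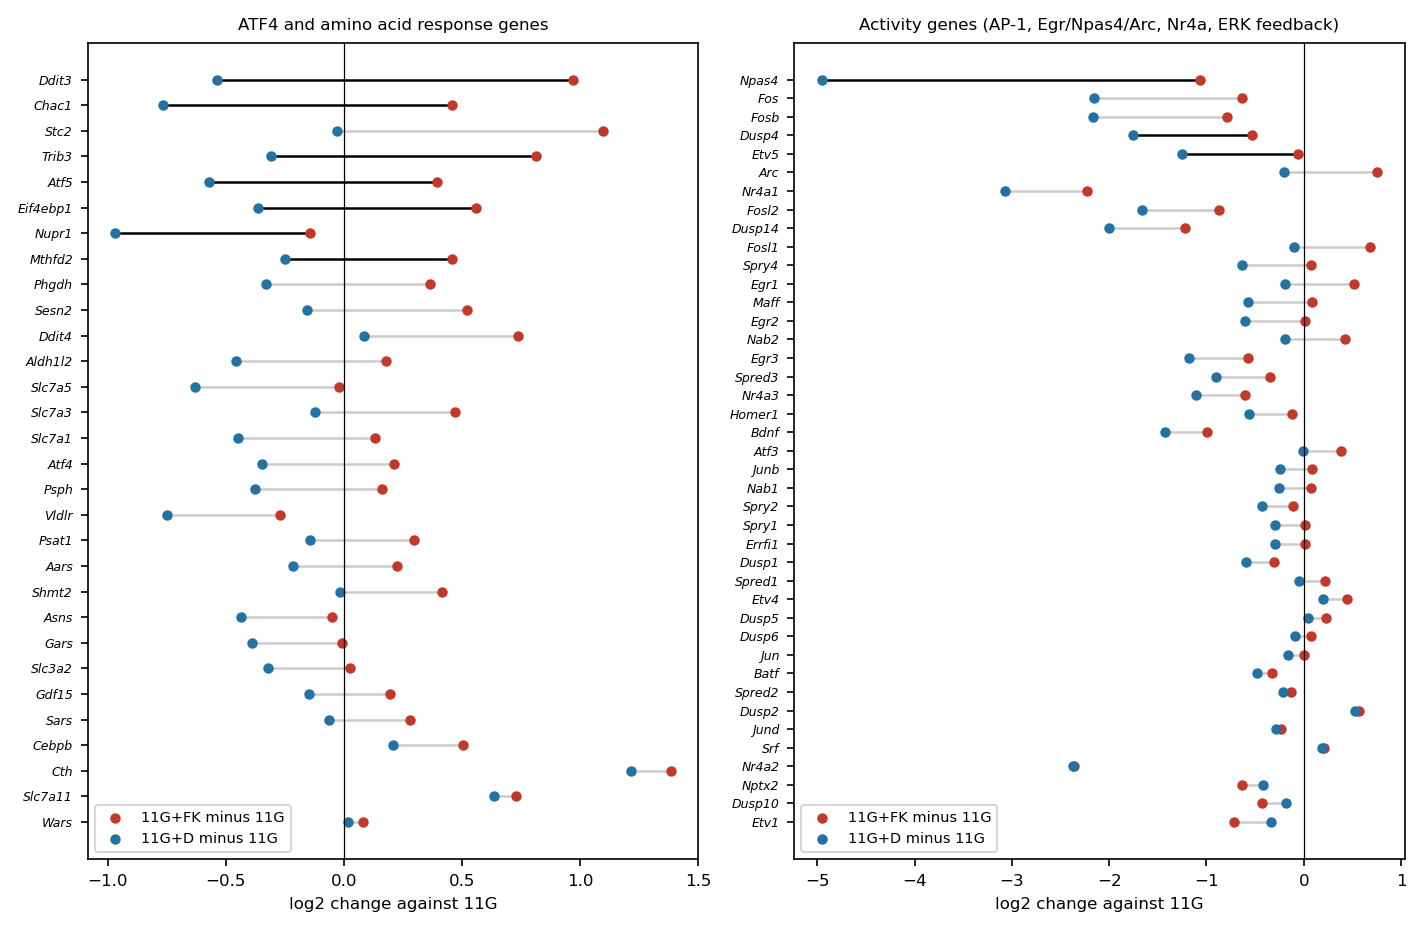
Log2 change of 11G+FK (red) and of 11G+D (blue) against 11G, for genes of the Atf4 list (left) and of the activity and ERK feedback lists (right), with black lines where FK506 and diazoxide differed past the threshold. Both contrasts use the same 11G libraries. Ddit3 and Trib3 lie above 11G with FK506 and below it with diazoxide, although none of these changes against 11G passed the threshold. Npas4 lies far lower with diazoxide than with FK506.

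Txnip and Pklr, genes known to respond to glucose metabolism, were lower with FK506 than with diazoxide. Txnip had 300 and 184 CPM in 11G+FK against 1549 and 875 CPM in 11G+D. The diazoxide libraries lay above all others, including 552 and 235 CPM in 11G and 118 and 179 CPM in 2G. The difference was -2.31 ± 0.36, or 4.97-fold lower with FK506 (adjusted p = 0.0174, edgeR's quasi-likelihood test). Pklr, a pyruvate kinase and known target of the glucose sensor ChREBP, had 9.87 and 7.63 CPM in 11G+FK against 35.8 and 14.9 CPM in 11G+D (-1.44 ± 0.25). The FK506 libraries of Pklr were near the 10.35 and 7.68 CPM of 11G (log2 change against 11G -0.04 with FK506 and 1.40 with diazoxide). Pklr was not higher at 11G than in 2G, which had 19.85 and 10.05 CPM. Txnip and Pklr were the 2 of 22 glucose-responsive and lipogenic genes past the threshold (0.385% over all genes were called lower). Arrdc4, a relative of Txnip with a similar glucose response, had a difference of -0.82, Slc2a2, the glucose transporter, -0.89, and Acly -0.79, while Elovl6 was at 0.67, and none passed. The list median was -0.02. Aacs, which activates acetoacetate for lipid synthesis, had 51.5 and 51.4 CPM in 11G+FK against 157 and 129 CPM in 11G+D (-1.47 ± 0.14). Pdk1, which inhibits pyruvate dehydrogenase, was lower by 0.87 and Eno2, the neuronal enolase, higher by 0.98, the 2 called members of 22 glycolysis genes. Fdps, an enzyme of isoprenoid synthesis, was higher by 0.83, the 1 called member of 25 cholesterol synthesis genes, whose median was 0.41 (0.57 in mouse 1 and 0.11 in mouse 2). Over all genes tested, 1.17% were called in either direction.

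Of 20 β-cell transcription factor genes, 1 was lower and 0 higher (0.385% and 0.783% over all genes). Rfx6, needed for islet development and insulin secretion, had 118 and 85.9 CPM in 11G+FK against 258 and 233 CPM in 11G+D (-1.30 ± 0.24, adjusted p = 0.0347, edgeR's quasi-likelihood test). The diazoxide libraries were the highest, and 11G stood at 77.5 and 56.9 CPM. Mafa had 51.9 and 21.8 CPM in 11G+FK against 71.4 and 143 CPM in 11G+D (-1.71 ± 0.44, adjusted p = 0.105 in the same test), and Isl1 138 and 112 against 236 and 268 CPM (-1.04 ± 0.21, adjusted p = 0.0501). The list median was -0.39, but it was 0.06 in mouse 1 and -0.78 in mouse 2. The insulin, prohormone processing and granule genes had 0 of 17 past edgeR's threshold, with 1 lower in DESeq2 and 1 lower at an unadjusted p under 0.05. Their medians were 0.14 in mouse 1 and -0.73 in mouse 2. Ins2, which encodes insulin, had 63300 and 43150 CPM in 11G+FK against 62550 and 67960 CPM in 11G+D (-0.32 ± 0.39). Gcg, which encodes glucagon, had 9283 and 2696 against 10400 and 6984 CPM (-0.81 ± 0.39). The marker shares of β and α cells given above were also lowest in the FK506 library of mouse 2, and their part in these values was not tested.

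Other large decreases by ratio were in genes at lower FPKM than Txnip. Ttc25, a dynein docking protein of cilia, had 2.24 and 1.76 CPM in 11G+FK against 26.1 and 11.3 CPM in 11G+D (-3.14 ± 0.32). Both diazoxide libraries lay above the 3.68 and 3.03 CPM of 11G. Aqp4, a water channel gene, had 18.01 and 15.56 CPM in 11G+FK against 102 and 56.0 CPM in 11G+D (-2.16 ± 0.22). Racgap1, a regulator of cytokinesis, had 8.30 and 6.69 against 34.2 and 18.6 CPM (-1.78 ± 0.24). Zfp189, a zinc finger gene, Ppp1r3c, which targets a phosphatase to glycogen, Dixdc1, of the Wnt pathway, and Slc40a1, the iron exporter ferroportin, were lower by 1.19 to 1.86 on the log2 scale. Tcp10b, of a gene family with similar copies, had 12 and 22 reads in 11G+FK against 66 and 108 in 11G+D. Ighm, an immunoglobulin constant gene of B cells, was called lower on 0 and 1 reads in 11G+FK against 61 and 5 in 11G+D, so no fold is given.

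Lists tied to the drugs' known targets held few calls, but only 1.17% of all genes tested were called. A count of 0 in lists this short therefore says little about their genes. At an unadjusted p under 0.05, 9.03% of all genes were higher and 7.34% lower. Calcineurin subunits and regulators had 0 of 19 past edgeR's threshold, 0 with DESeq2 and 2 higher at an unadjusted p under 0.05. Rcan1, a calcineurin regulator whose transcription NFAT raises in other tissues, had 31.8 and 40.1 CPM in 11G+FK against 36.8 and 41.0 CPM in 11G+D (-0.12 ± 0.17, 95% interval -0.50 to 0.26). Among 12 NFAT and MEF2 genes, 1 passed edgeR's threshold. It was Hdac5, a deacetylase that represses MEF2, higher by 0.83 ± 0.16. In that list 2 genes were higher and 2 lower at an unadjusted p under 0.05, and DESeq2 called 1 higher and 2 lower. CREB and cAMP responsive genes had 0 of 26 entries past edgeR's threshold and 1 lower in DESeq2, with 2 higher and 2 lower at an unadjusted p under 0.05 and a median of -0.07. Potassium channel genes had 0 of 26 past edgeR's threshold and exocytosis genes 0 of 28, with 6 and 3 at an unadjusted p under 0.05 and 2 each in DESeq2. Calmodulins and CaM kinases had 0 of 16, calcium channel, pump and store genes 0 of 31 and heat shock genes 0 of 16 past edgeR's threshold, with 2, 9 and 1 at an unadjusted p under 0.05 and 0, 1 and 0 in DESeq2. Per2, of the circadian clock, was higher by 1.01. Adora2b, an adenosine A2b receptor gene, had 32.5 and 18.7 CPM in 11G+FK against 46.3 and 56.2 CPM in 11G+D (-1.05 ± 0.23, adjusted p = 0.0585, edgeR's quasi-likelihood test).

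**Figure D5:**
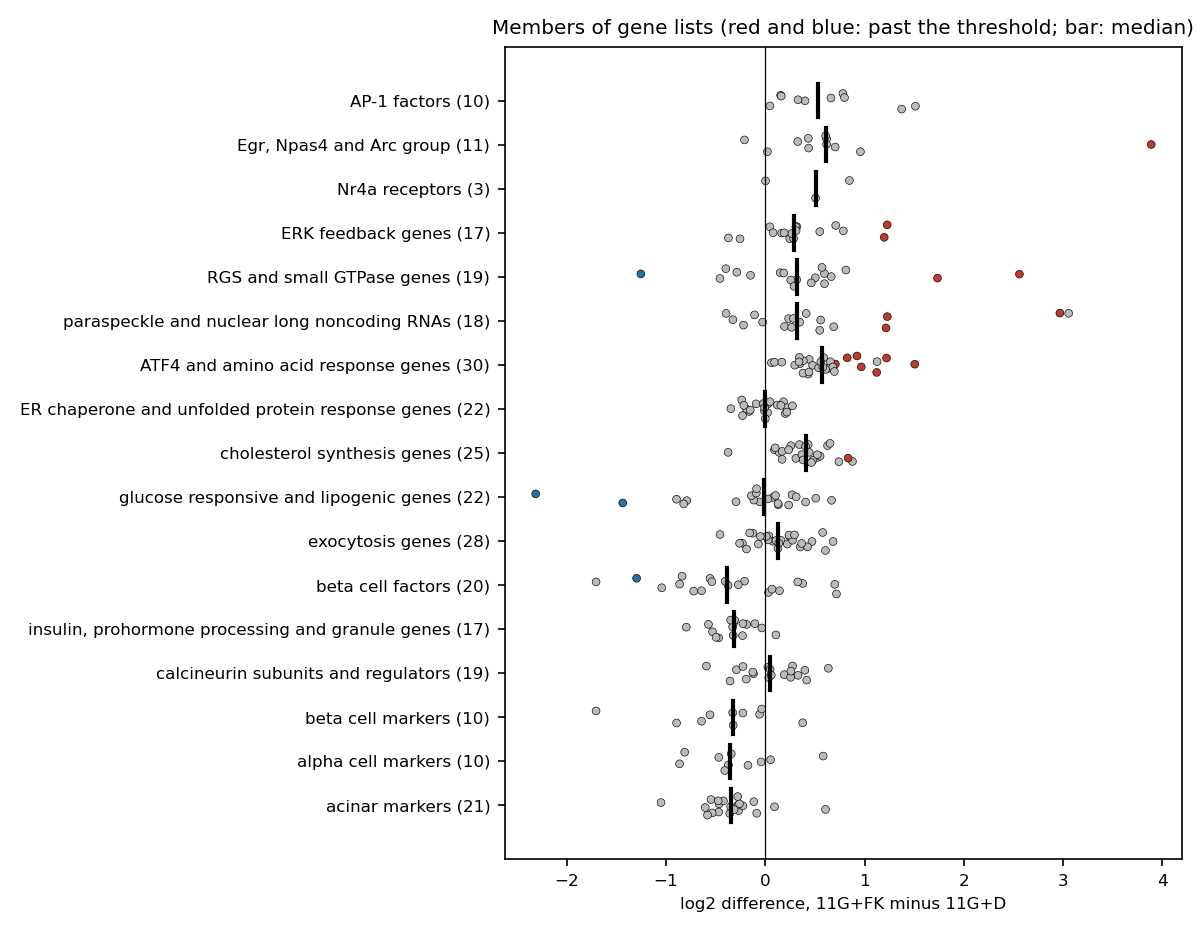
Log2 difference of 11G+FK minus 11G+D for each tested member of 17 gene lists (points, number tested in brackets), with members past the threshold in red or blue and the list median as a bar. The Atf4 list has 7 red points and a median of 0.57, and the unfolded protein response list has 0 and a median of -0.0032.

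The genes called between the drugs were set beside the response to glucose, 11G against 2G, which uses none of the 4 drug libraries but comes from the same mice and fit. In that contrast 503 genes were higher (3.13%) and 275 lower (1.71%). Of the 126 genes higher with FK506 than with diazoxide, 34 were also higher at 11G (27.0% of the 126 and 6.76% of the 503) and 5 were lower (3.97% of the 126). In both mice 91 of the 126 were higher at 11G (72.2%, against 32.9% of all genes), with a median log2 change of 0.54. Npas4, Neat1, Rem2, Zdhhc22 and Klhdc8a were among the 34. Ddit3, Chac1 and Trib3 were among the 5, with changes of -1.12, -0.64 and -1.07 in 11G against 2G. Of the 62 genes lower with FK506, 3 were higher at 11G and 6 were lower, with a median of -0.06. Seen from the other side, the 503 glucose-induced genes had a median difference between FK506 and diazoxide of 0.18, at 0.33 in mouse 1 and 0.07 in mouse 2. The count of 34 was 2 without either FK506 library, 4 and 11 without the 11G library of mouse 1 or 2, 58 without the 2G library of mouse 1, and 3 without the mouse block.

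Against the shared 11G libraries, the 126 genes had a median log2 change of 0.17 with FK506 and -1.06 with diazoxide. The 62 genes had medians of -0.02 with FK506 and 0.95 with diazoxide. Light in the channelrhodopsin-2 islets, which share no library, gave a median of 0.06 over the 125 of the 126 genes tested there. Of these, 47 were higher under light in both mice (37.6%, against 29.0% of all genes) and 31 were lower (4195 of 14972 over all genes). Of the 62 genes lower with FK506, 24 were higher under light in both mice (38.7%) and 12 were lower, with a median of 0.05. Without the light library of mouse 1 both medians had the opposite sign (-0.00618 and -0.0694), and without the unlit library of mouse 1 that of the 62 genes did (-0.0578). Light lasted 40 min, against 4 h with each drug, so the 2 sets of values differ in time as well as in stimulus.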

How the data were processed

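Whole-islet RNA was sequenced in 12 libraries, 2 mice in each of 6 groups. Per the file headers, the authors deposited 8 tables that each pair 2 libraries of 1 mouse and hold raw read counts per gene, FPKM values and a normalized signal. The deposited FPKM values served for levels per length, and the deposited normalized signal, a constant multiple of the counts within a column, was not tested. No aligner, counter, strand setting or build is named in the sources used here.

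Counts were joined by gene identifier (24503 genes), and the 2704 to 3262 genes absent from a table of a drug library were set to 0. The 11G counts of the tables differed at 0 genes. The 8 wild-type libraries (16375631 to 22892255 counts) were fitted together by the two-sided quasi-likelihood test of edgeR 4.0.16 (R 4.3.3), after TMM scaling and a filterByExpr filter at a minimum count of 10 and a total of 15, with the mouse number as a block, 3 residual degrees of freedom and Benjamini-Hochberg adjustment over 16087 genes at 0.05. The channelrhodopsin-2 libraries were fitted apart (15171 genes, 1 residual degree of freedom). Either fit had a biological coefficient of variation of 16.2%, which limits what 2 mice a group can show. The SE is the log2 difference over the square root of F, and since it draws on all libraries and genes it may understate how much a single gene varied from mouse to mouse. Log2 CPM differences per mouse used a prior count of 1. The test procedure was run on counts simulated from the wild-type fit with changes added. That run does not test the calls made here or their dependence on single libraries. The titles give the same mouse number in each condition, and deviations of same-numbered libraries from their group means correlated by 0.145 to 0.456 across genes. For 11G+D and 11G+FK, the groups compared here, the correlation was 0.15, near the low end.

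The 36 gene lists, the members of the comparison and the tests were chosen with earlier results of these data known. Named genes were the 15 largest called increases and decreases that agreed in direction between the mice and averaged at least 1 FPKM (unnamed gene models left out), up to 4 called members of each list, and a fixed set of activity, drug target and hormone genes. Members named beyond these were chosen after their values were seen. A few list members are not reported here. The alternatives were a fit without the block, the 4 drug libraries alone, all 12 libraries, DESeq2 1.42.0, RLE size factors, no filter, a filter at 10 CPM in 2 libraries, and leaving out each library.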

Additional observations from a re-analysis of the deposited data

How the results depend on the processing

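With 2 mice a group, counts of calls moved widely. No named gene past the threshold changed sign under any alternative, but all called genes already had the same direction in both mice. The main counts were 188 called genes (126 higher and 62 lower with FK506), 26 pathway list genes, 44 named genes and 778 genes between 11G and 2G. Without the replicate block they were 5 (4 higher, 1 lower), 4, 5 and 68. With the 4 drug libraries alone, blocked, they were 536 (342 and 194) and 63 list genes, and with DESeq2 481 (290 and 191), 56 list genes and 1286 between 11G and 2G. Without a filter on low counts they were 617 (405 and 212), 66 and 1672, and at 10 CPM in 2 libraries 35 genes were lower. All 12 libraries in 1 fit and RLE size factors kept each of these counts within 1.5 times. Leaving out 1 library gave 3 to 486 calls (2 to 306 higher, 0 to 180 lower), 2 to 52 list genes, 3 to 47 named genes and 42 to 1704 genes between 11G and 2G. The median under light of the genes higher with FK506 was -0.00778 at 10 CPM, and ranged from -0.00618 to 0.0785 over left-out libraries. That of the genes lower with FK506 ranged from -0.0694 to 0.167. The fits with a channelrhodopsin-2 library left out also held the wild-type libraries. The 4 drug libraries alone hold no 11G or 2G library and gave no value for that contrast. Low counts limit Slc6a19os, Zdhhc22 and Ighm. The cause was not tested.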

Other observations

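Several called genes outside the lists share textbook roles and were singled out after their values were seen, so no theme was tested. Arglu1, Luc7l3, Ccnl2, Ddx17 and Zranb2 encode proteins of RNA splicing or processing, and all were higher with FK506. Arglu1 had 148 and 181 CPM in 11G+FK against 79.3 and 64.7 CPM in 11G+D (log2 1.2 ± 0.17). Ddx17, an RNA helicase, had 584 and 526 against 334 and 244 CPM (0.96 ± 0.16). Luc7l3, Ccnl2 and Zranb2 were higher by 0.89, 0.90 and 0.82.

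Among the called decreases, Atg14, Ambra1 and Wdr45 encode proteins of autophagosome formation, and Pik3c3 encodes the lipid kinase that Atg14 binds. Ambra1 had 91.8 and 120 CPM in 11G+FK against 182 and 192 CPM in 11G+D (-0.83 ± 0.15). Atg14 had 24.9 and 26.1 CPM in 11G+FK against 43.2 and 44.8 CPM in 11G+D (-0.79 ± 0.15), beside 24.8 and 24.7 CPM in 11G and 44.7 and 44.6 CPM in 2G. Wdr45 and Pik3c3 were lower by 0.87 and 0.74. These calls were lost without either FK506 library.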
